A study of Mus musculus with 35 samples.

Results

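Transcripts of 10 Toll-like receptor (TLR) genes were followed across sorted liver macs: Tlr1, Tlr2, Tlr3, Tlr4, Tlr5, Tlr6, Tlr7, Tlr8, Tlr9 and Tlr13. The members were taken by symbol from the count tables, in which they are 10 of 54735 gene symbols. The series holds bulk RNA-seq of 35 samples in 6 groups, all from livers of C57BL/6J mice, male in the diet experiments, that were put on their diet at 5 weeks of age. Resident Kupffer cells (ResKCs, sorted as CLEC4F+TIM4+) came from mice fed a standard diet (SD) for 12 weeks (n = 7) or 24 weeks (n = 6), and from mice fed a western diet (WD) rich in fat, cholesterol and sugar for 12 weeks (n = 5) or 24 weeks (n = 6). Monocyte-derived Kupffer cells (moKCs, CLEC4F+TIM4-, n = 5) and macs that lack CLEC4F (CLEC4F- macs, n = 6) came from the WD at 24 weeks. For the 5 WD samples at 12 weeks a single label field gives the standard diet where title and description give the WD, and the title was followed. The study gives its sample number as mice for these sorts, and no source used here ties samples of different populations to the same mouse.

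TLRs are single-pass membrane proteins whose leucine-rich outer part binds microbial molecules and whose inner TIR domain recruits the adaptors MyD88 or TRIF, which switch on NF-kB and interferon regulatory factors. TLR1, TLR2, TLR4, TLR5 and TLR6 sit at the cell surface and read lipoproteins, lipopolysaccharide and flagellin, whereas TLR3, TLR7, TLR8, TLR9 and TLR13 read nucleic acids inside endosomes. Kupffer cells line the liver sinusoids and are the first macs to meet gut-derived microbial products in portal blood.

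Depth was even, with 11568590 to 15163845 counts per sample, at which 3 counts of a gene correspond to 0.198 to 0.259 counts per 1e+06 counts (CPM), a floor that covers counting error only. The sort labels were checked against markers. Clec4f had 294 to 5488 CPM in CLEC4F- macs against 7326 CPM or more in moKCs and 11174 CPM or more in WD ResKCs at 24 weeks, and Timd4 had 2.85 to 30.3 CPM in moKCs against 547 CPM or more in WD ResKCs at 24 weeks. CLEC4F- mac replicate 4 stood apart: 6 Kupffer cell markers summed to 12198 CPM in it and to 1295 to 5550 CPM in the other CLEC4F- mac samples, so the fold changes of members against this group are also given without it. Alignment names in the file headers follow 2 schemes, with 22 and 13 samples, whose meaning no source used here gives. WD ResKCs at 12 weeks and SD ResKCs at 24 weeks have the first scheme throughout, and each other group is mixed. The CPM values of genes are scaled with edgeR's TMM factors, and the floor is on the raw totals.

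The starts of 2 members on which the results turn are printed from RefSeq (GRCm38.p6), 250 bases before to 50 after the gene start on the minus strand. These are the genes for the TLR2 subunit, the member that differed between the diets, and its partner TLR1, the called member with the widest gap between populations. In capitals are the matches to GGGNNTTCC on either strand, the letters of NF-kB, which overlap each other in Tlr2, and to GAGGAAGT, those of PU.1. The letters TATAAA of the core promoter box, TGANTCA of AP-1 and those of the ISRE were searched on both strands as well and had no match in these windows. The Tlr2 window is chr3:83841559-83841858 and the Tlr1 window is chr5:64933509-64933808. A second Tlr1 window in the table, chr5:64932650-64932949, had no match to any of the 5 motifs and is not printed.
Tlr2: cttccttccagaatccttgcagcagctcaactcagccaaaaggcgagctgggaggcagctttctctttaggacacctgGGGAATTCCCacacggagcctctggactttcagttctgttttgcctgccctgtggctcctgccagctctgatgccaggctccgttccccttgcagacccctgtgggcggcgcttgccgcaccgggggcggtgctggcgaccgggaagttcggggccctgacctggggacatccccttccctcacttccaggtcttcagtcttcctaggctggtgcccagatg
Tlr1: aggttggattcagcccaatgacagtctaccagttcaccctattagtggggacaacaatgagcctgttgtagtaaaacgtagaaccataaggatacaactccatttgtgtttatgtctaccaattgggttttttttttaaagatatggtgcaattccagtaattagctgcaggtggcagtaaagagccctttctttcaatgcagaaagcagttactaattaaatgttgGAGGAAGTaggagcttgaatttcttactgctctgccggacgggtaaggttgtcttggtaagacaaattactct
Of 32851 such windows, 5.82% held the NF-kB letters, 3.20% the PU.1, 7.81% the AP-1, 3.44% the ISRE and 13.6% the core promoter box letters. The matches are descriptions of these windows and not sites of binding. Of the 10 members, Tlr4 and Tlr7 had no window in the table.

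The 10 genes differed far more from each other than between groups. To compare genes, CPM was divided by the kilobases of merged exons of each gene in GENCODE M21 (GRCm38). Tlr11 and Tlr12, the other mouse receptors, were not ranked with the 10. Tlr12 has 3177 bp of exons against 3014 bp for Tlr2. The CPM of Tlr12 in moKCs, given below, reached above that of Tlr2. Per length, Tlr2, which pairs with TLR1 or TLR6 to bind bacterial lipoproteins, was the highest of the 10 in all 6 groups, from 56.1 ± 8.2 CPM per kb in moKCs (SD, n = 5) to 97.7 ± 9.9 CPM per kb in SD ResKCs at 24 weeks (SD, n = 6). Tlr4, the lipopolysaccharide receptor, followed in the 4 ResKC groups with 45.0 to 53.7 CPM per kb. The endosomal RNA sensors other than Tlr3 formed a middle band in ResKCs. As group means, Tlr13 had 34.7 to 40.5, Tlr8 30.5 to 34.0 and Tlr7 33.4 to 36.9 CPM per kb there. Tlr1 had 19.2 to 24.5 CPM per kb in ResKCs. Tlr3, the sensor of double-stranded RNA, had 7.02 to 7.95 CPM per kb there, and Tlr6, the other partner of TLR2, had 6.93 to 7.63.

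Tlr9 and Tlr5 were at the edge of detection. Tlr9, the receptor for unmethylated CpG DNA, had 4 to 50 counts in a sample and Tlr5, the flagellin receptor, had 0 to 26 counts. Both passed the filter of over 1 CPM in at least 5 samples, as did the other 8 members. At least 1 sample in every group other than the moKCs had 0 counts of Tlr5, and the lowest moKC sample had 1 count. The 95% intervals of the Tlr5 log2 fold change ran from -0.67 to 3.34 for the diet at 24 weeks and from -2.97 to 0.58 for WD ResKCs against CLEC4F- macs. Changes of any size within these wide ranges remain compatible with the data. Tlr9 was at 1.82 ± 0.92 CPM in CLEC4F- macs (SD, n = 6) and at 0.93 to 1.17 CPM in the mean of the other groups, and no comparison called it. Among samples of a group, the median coefficient of variation was 10.2% to 16.1% for the other 8 members, 48.6% for Tlr9 and 113% for Tlr5.

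**Figure D1:**
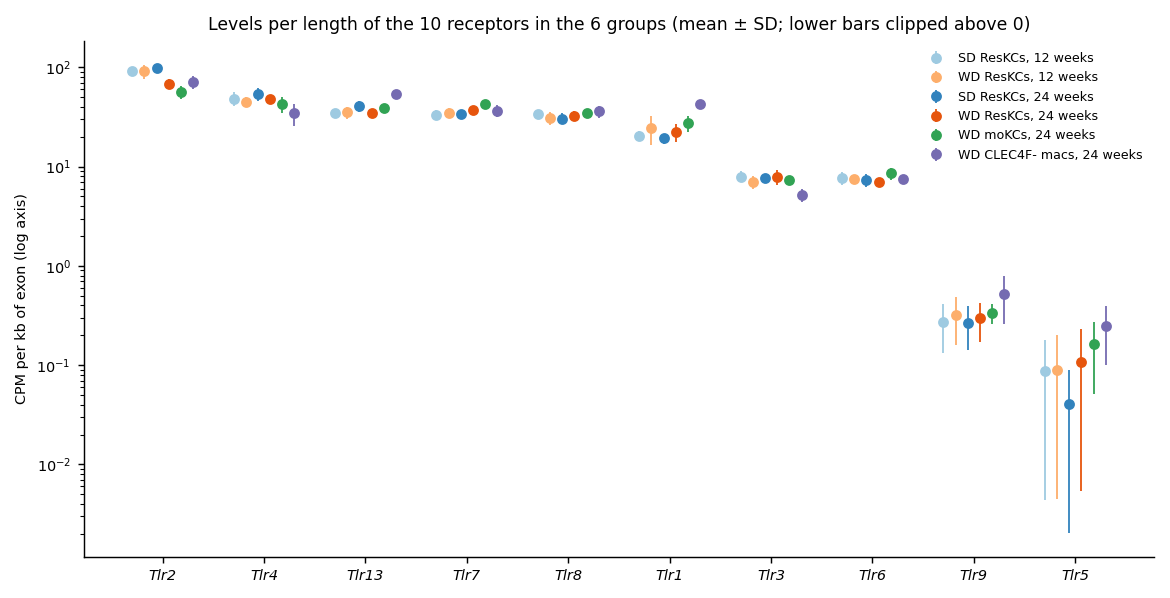
Mean CPM per kb of exon (log axis) of the 10 receptors in the 6 groups, with SD as bars (lower bars are clipped above 0) and genes ordered by their level in SD ResKCs at 24 weeks. Tlr2 is the highest of the 10 in every group, and Tlr9 and Tlr5 lie below 1 CPM per kb in all groups.

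Summed over the 10 genes, the level per length had group means from 257.9 ± 14.3 CPM per kb in WD ResKCs at 24 weeks (SD, n = 6) to 291 ± 24.4 in SD ResKCs at 24 weeks (SD, n = 6). Tlr2 supplied 33.6% ± 1.9 of the sum in SD ResKCs at 24 weeks (SD, n = 6), 26.3% ± 2.2 in WD ResKCs (SD, n = 6) and 21.7% ± 3.0 in moKCs (SD, n = 5). In CLEC4F- macs, Tlr1 supplied 14.9% ± 1.2 and Tlr13 18.6% ± 1.3 of the sum (SD, n = 6), against 8.54% ± 1.3 and 13.6% ± 1.3 in WD ResKCs at 24 weeks (SD, n = 6). Tlr11 and Tlr12 are not in the sum, so these are shares of the 10 genes and not of all TLR mRNA. The shares describe mRNA and not receptor protein.

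**Figure D2:**
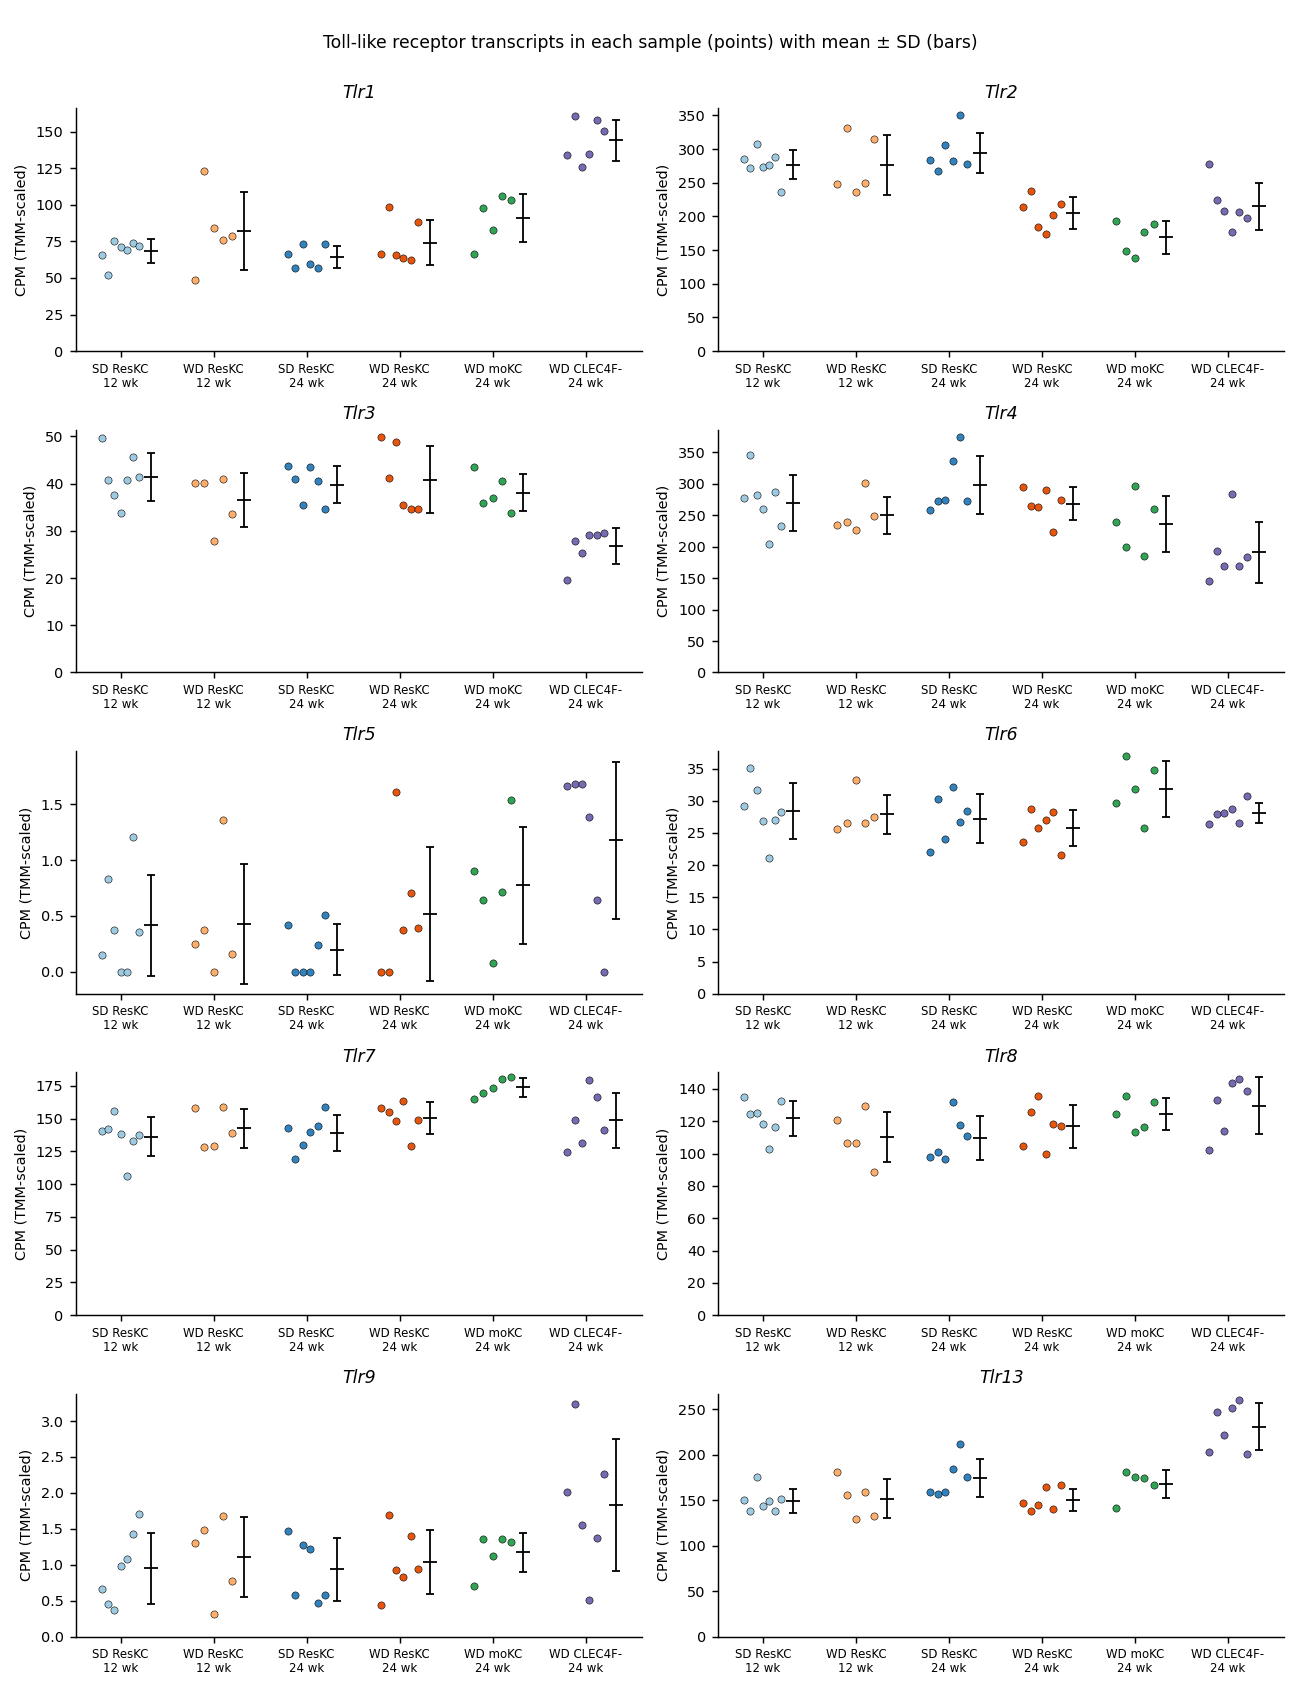
TMM-scaled CPM of each receptor in each of the 35 samples (points, by group on the horizontal axis) with the group mean ± SD (bars), each gene on its own linear axis. Tlr2 is lower in the 6 WD than in the 6 SD ResKC samples at 24 weeks, and the means of Tlr1 and Tlr13 are highest in CLEC4F- macs.

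The first question was whether the WD changed TLR transcripts in ResKCs. After 24 weeks, Tlr2 was lower on the WD and no other member passed the test. Tlr2 lay between 267 and 350 CPM in the 6 SD samples (median 283) and between 174 and 237 CPM in the 6 WD samples (median 208). The highest WD sample was below the lowest SD sample. The means were 294 ± 30 CPM (SD, n = 6) and 205 ± 23 CPM (SD, n = 6), a log2 fold change of -0.52 ± 0.10 (SE) with an adjusted p of 0.00164 in the quasi-likelihood test of edgeR, adjusted over 13421 genes after Benjamini and Hochberg. Thus 0 of 10 members were higher and 1 of 10 was lower, where 4.84% of all genes tested were higher and 3.87% lower. At an unadjusted p under 0.05 in edgeR there were 2 members, Tlr2 and Tlr13, both lower, beside 1750 of the 13421 genes higher and 1581 lower. DESeq2 and limma-voom each called 1 member. Tlr2 did not pass a limit of 1 on the log2 scale, which 3.35% of all genes passed in either direction together with the adjusted p. The median log2 fold change was 0.07 over the 10 members and 0.00 over all genes.

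Immediate-early and heat-shock genes, which respond to the handling of cells as well as to stimuli, moved with this difference. All 10 genes of this list were detected, and their summed level ran from 2587 to 13824 CPM in SD ResKCs at 24 weeks (median 8863) and from 1050 to 4945 CPM in WD ResKCs (median 1953). On the WD 7 of the 10 were called lower and 0 higher, where 3.87% of all genes were lower and 4.84% higher. Their median log2 fold change was -1.71. Across the 35 samples, the deviation of Tlr2 from its group mean had an r of 0.49 with that of the list's score, which is the mean of centred log2 CPM, and the other 9 members had r between -0.27 and 0.17. With the score as a covariate the Tlr2 log2 fold change was -0.35 ± 0.11 (SE, adjusted p = 0.0625 in edgeR). The part of these genes in the diet difference was not tested further. Within the first naming scheme alone, 3 WD and 6 SD samples, the difference of mean log2 CPM of Tlr2 was -0.48. The second scheme holds no SD sample at this time.

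Markers of other cells also moved with the diet at 24 weeks. Hepatocyte markers summed to 315 to 1117 CPM on the SD and 842 to 3097 CPM on the WD, with 1 of 8 called higher. With the score of these genes as a covariate the Tlr2 log2 fold change was -0.45 ± 0.11 (SE, adjusted p = 0.00827 in edgeR). Liver endothelium markers summed to 737 to 1741 and 486 to 972 CPM (1 of 7 called lower), stellate cell markers to 58.6 to 177 and 33.7 to 99.8 CPM (1 of 6 lower) and B cell markers to 21.2 to 55.7 and 10.3 to 28.8 CPM (1 of 5 tested lower). Monocyte markers summed to 119 to 224 and 92.3 to 171 CPM, with 1 of 5 tested called higher, and T and NK cell markers stayed at or below 3.71 CPM, with 1 of 3 tested called higher. The part of the cells other than hepatocytes in the Tlr2 difference was not tested.

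**Figure D3:**
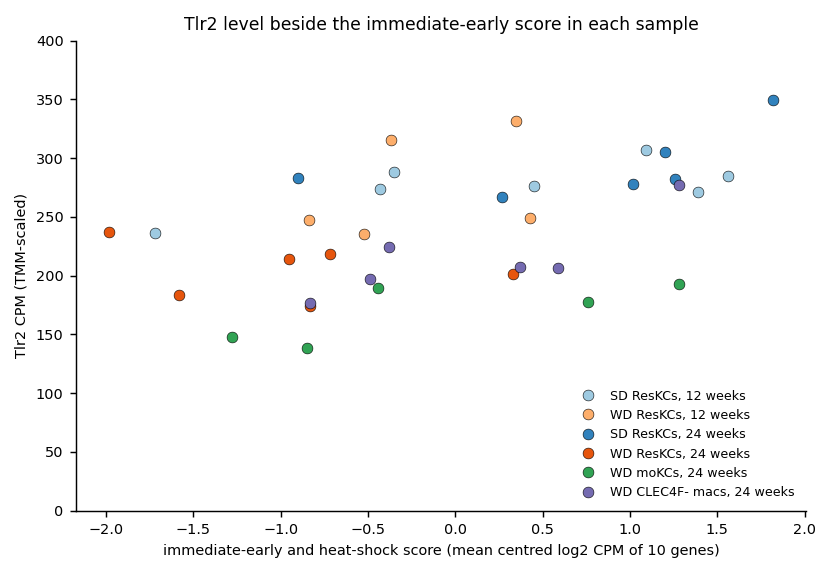
Tlr2 level (TMM-scaled CPM, vertical axis from 0) against the score of 10 immediate-early and heat-shock genes (mean centred log2 CPM) in each of the 35 samples, coloured by group. SD ResKCs at 24 weeks span scores of -0.9 to 1.82 and WD ResKCs at 24 weeks -1.98 to 0.33, with Tlr2 lower in the latter.

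After 12 weeks on the diets Tlr2 did not differ detectably. It had 236 to 307 CPM in the 7 SD samples (median 276) and 248, 332, 236, 249 and 315 CPM in the 5 WD samples, so the groups overlapped. The 95% interval of the log2 fold change was -0.21 to 0.20 (adjusted p = 0.993 in edgeR). At this time 0 of 10 members were called by edgeR, DESeq2 or limma-voom, where edgeR called 0.0149% of all genes higher and 0.0224% lower. At an unadjusted p under 0.05 in edgeR there were 0 members as well. At that looser limit 706 of all 13421 genes were higher, and fewer than 706 were lower. The member median log2 fold change was 0.01, beside 0.02 over all genes. The difference between the diet effects at 24 and 12 weeks was tested as an interaction. For Tlr2 it was -0.52 ± 0.15 on the log2 scale (SE, adjusted p = 0.0974 in edgeR, unadjusted p = 0.0012), which missed the limit, and DESeq2 gave -0.51 with an adjusted p of 0.0496. No member was called by edgeR (0 of 10, with 0.0671% of all genes higher and 0.216% lower) or by limma-voom, 1 was called by DESeq2, and 1 had an unadjusted p under 0.05 in edgeR. At that unadjusted limit 819 of all 13421 genes were higher and 1067 lower. The median was -0.05 over the members and 0.00 over all genes.

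The time on each diet was compared next, with the same samples. In WD ResKCs Tlr2 was lower at 24 than at 12 weeks, with a log2 fold change of -0.43 ± 0.11 (SE, adjusted p = 0.0237 in edgeR), although the highest 24-week sample (237 CPM) lay above the lowest 12-week sample (236 CPM). It was 1 of 10 members called lower and 0 were higher, where 1.53% of all genes were higher and 1.73% lower. This call was lost without WD ResKC replicate 2 or 5 at 12 weeks or replicate 4 at 24 weeks, with adjusted p of 0.0676, 0.087 and 0.0602 in edgeR. Tlr2 did not pass the limit of 1 on the log2 scale, which 0.693% of all genes did. The median log2 fold change was 0.03 over the members and 0.00 over all genes. In SD ResKCs 0 of 10 members were called between 24 and 12 weeks by edgeR, DESeq2 or limma-voom, with 0% of all genes called in each direction by edgeR. Only Tlr13, a sensor of bacterial ribosomal RNA, had an unadjusted p under 0.05 there, with a log2 fold change of 0.22 ± 0.08 (SE, unadjusted p = 0.0131 and adjusted p = 0.422 in edgeR). At that unadjusted limit 602 of all 13421 genes were higher and 606 lower. The medians of the log2 fold change were taken over the members and over all genes. The medians were -0.04 and 0.00.

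Tlr4 showed no detectable diet difference. It had 259 to 374 CPM in SD ResKCs at 24 weeks (median 273) and 223 to 295 CPM in WD ResKCs (median 270), which overlapped. The 95% interval of its log2 fold change was -0.41 to 0.11 at 24 weeks and -0.38 to 0.16 at 12 weeks. For the other endosomal and surface members with usable counts, Tlr1, Tlr3, Tlr6, Tlr7, Tlr8 and Tlr13, the log2 fold changes of the diet lay between -0.22 and 0.26 at either time.

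**Figure D4:**
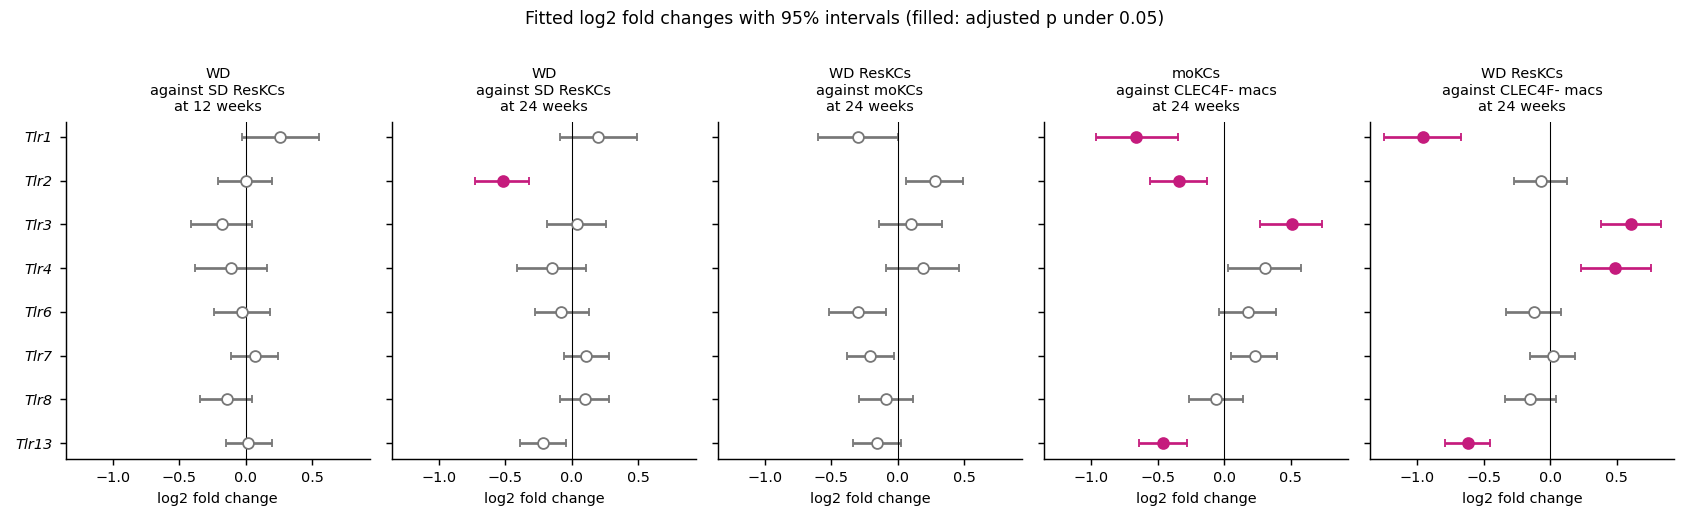
Fitted log2 fold changes (points) with 95% intervals (bars) for 8 receptors in 5 comparisons, filled where the adjusted p was under 0.05 in edgeR. Tlr5 and Tlr9, with at most 50 counts in a sample, are left out. Tlr2 alone is filled for the diet at 24 weeks, and Tlr1, Tlr3 and Tlr13 are filled in both comparisons with CLEC4F- macs.

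The second question was how the 3 populations of the WD liver differ at 24 weeks. WD ResKCs differed from CLEC4F- macs in 4 of the 10 members: Tlr3 and Tlr4 were higher in ResKCs, and Tlr1 and Tlr13 were lower. These are 2 members higher and 2 lower, where 17.0% of all genes were higher and 16.1% lower, so the share of members called was close to that of all genes. None of the 4 passed the limit of 1 on the log2 scale, which 10.4% of all genes did. The median log2 fold change was -0.14 over the members and -0.02 over all genes. In bulk samples fewer cells that express a gene and less RNA in each cell cannot be told apart.

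Tlr1 had the widest gap. It had 62.2 to 98.6 CPM in WD ResKCs (median 66.1) and 126 to 160 CPM in CLEC4F- macs (median 143). Every CLEC4F- mac sample was above every ResKC sample. The log2 fold change was -0.96 ± 0.15 (SE, adjusted p = 4.37e-06 in edgeR), and -0.98 without CLEC4F- mac replicate 4. It was -0.88 and -1.07 as a difference of mean log2 CPM within the first and the second naming scheme.

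Tlr6, the neighbour of Tlr1, was not called. Both lie on the minus strand of chromosome 5 of GRCm38, Tlr1 at chr5:64924679-64933563 and Tlr6 at chr5:64952031-64960097, 18467 bp apart, each with its coding sequence in 1 exon. Tlr6 had 21.6 to 28.7 CPM in WD ResKCs (median 26.3) and 26.4 to 30.8 CPM in CLEC4F- macs (median 28.0), which overlapped, with a log2 fold change of -0.12 and a 95% interval of -0.33 to 0.08. The ratio of Tlr1 to Tlr6 per length was 2.44 to 4.55 in WD ResKCs at 24 weeks, 2.48 to 4.57 in moKCs and 4.99 to 6.62 in CLEC4F- macs, with or without replicate 4, and the last did not overlap with the other 2. The ratio reached 5.165 in WD ResKCs at 12 weeks, which overlapped with CLEC4F- macs. Its highest values in SD ResKCs were 3.62 at 12 weeks and 3.41 at 24 weeks. The 2 genes share 340 stretches of 75 bases, the read length, which are 10.3% of those in Tlr1 and 9.25% of those in Tlr6. How the counting treated reads that map to both is not given, so their separate values are uncertain to that extent. No other pair of the 12 mouse Tlr genes compared shared such a stretch.

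Tlr13, at chrX:106143204-106160493, was also highest in CLEC4F- macs by mean. It had 138 to 167 CPM in WD ResKCs (median 146) and 201 to 261 CPM in CLEC4F- macs (median 234), with no overlap. The log2 fold change was -0.62 ± 0.09 (SE, adjusted p = 1.12e-06 in edgeR), -0.59 without CLEC4F- mac replicate 4, and -0.64 and -0.59 within the 2 schemes.

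Tlr3 went the other way. It lies at chr8:45395665-45411080, and 381 bases of its exons overlap the opposite-strand gene Gm45542, whose reads could not be told apart as the strand setting is not given. Tlr3 had 34.6 to 49.9 CPM in WD ResKCs (median 38.3) and 19.5 to 29.6 CPM in CLEC4F- macs (median 28.5), with no overlap. Its log2 fold change was 0.61 ± 0.12 (SE, adjusted p = 8.37e-05 in edgeR) and 0.63 without CLEC4F- mac replicate 4. Within the naming schemes it was 0.95 and 0.25, so the size of this gap differed between them.

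Tlr4, at chr4:66827584-66930284, was higher in ResKCs, with 223 to 295 CPM (median 270) against 146 to 284 CPM in CLEC4F- macs (median 177). The groups overlapped through CLEC4F- mac replicate 4 alone, at 284 CPM, since the other 5 samples had 193 CPM or less. The fitted difference was 0.49 ± 0.13 on the log2 scale (SE, adjusted p = 0.0043 in edgeR) and 0.64 (adjusted p = 9.38e-05) without that sample. Within the schemes it was 0.70 and 0.34.

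Tlr2, Tlr7 and Tlr8 were not called between ResKCs and CLEC4F- macs. Their 95% intervals were -0.27 to 0.13, -0.15 to 0.19 and -0.34 to 0.04 on the log2 scale. Tlr8 and Tlr7 lie next to each other on the X chromosome, 40599 bp apart, and their ratio per length had a group mean between 0.98 and 1.23 in all 6 groups.

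Markers of macs and of other cells moved with the populations. The 5 general macrophage markers summed to 11980 to 15114 CPM in WD ResKCs, 9973 to 11976 in moKCs and 5569 to 9633 in CLEC4F- macs. Of these, 4 of 5 were called higher in WD ResKCs than in CLEC4F- macs. The 6 Kupffer cell markers summed to 26554 to 33932 CPM in WD ResKCs at 24 weeks, 17034 to 24587 in moKCs and 1295 to 12198 in CLEC4F- macs. The 6 monocyte markers summed to 92.3 to 171 CPM in WD ResKCs, 110 to 290 in moKCs and 370 to 1432 in CLEC4F- macs, and B cell markers to 10.3 to 28.8, 19.0 to 52.6 and 28.8 to 178 CPM. In WD ResKCs against CLEC4F- macs, 3 of 5 monocyte and 5 of 5 B cell markers tested were called lower. Markers of type 1 conventional dendritic cells summed to 140 to 184, 131 to 189 and 129 to 192 CPM, with 2 of 6 called lower in that comparison. Liver endothelium markers, from 7 genes, summed to 486 to 972 CPM in WD ResKCs and 396 to 697 in CLEC4F- macs, with 2 of 7 called higher in ResKCs. T and NK cell markers summed to 0.964 to 3.71 CPM in WD ResKCs, 2.58 to 5.92 in moKCs and 5.43 to 20.1 in CLEC4F- macs, with 3 of 3 tested called lower in ResKCs than in CLEC4F- macs. Stellate cell markers summed to 33.7 to 99.8, 75.2 to 179 and 70.4 to 255 CPM (3 of 6 called lower in the same comparison) and immediate-early and heat-shock genes to 1050 to 4945, 1770 to 10587 and 2172 to 10865 CPM (3 of 10 lower). Hepatocyte markers summed to 842 to 3097 CPM in WD ResKCs and 696 to 2883 CPM in CLEC4F- macs. All of these genes were above 0 in some sample of each of the 3 groups. Neutrophil markers stayed at or below 6.31 CPM in sum, with 2 of 6 at 0 in every WD ResKC sample and 3 of 6 at 0 in every CLEC4F- mac sample. The part of these cells, and of the general macrophage markers, in the TLR differences was not tested.

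By mean, moKCs lay between the other 2 populations for Tlr1, Tlr3, Tlr4 and Tlr13. Tlr1 had 66.2, 97.9, 83.1, 106 and 103 CPM in the 5 moKC samples, all below the lowest CLEC4F- mac sample. The log2 fold change of moKCs against CLEC4F- macs was -0.66 ± 0.16 (SE, adjusted p = 0.00261 in edgeR). Tlr13 had 142, 182, 176, 174 and 166 CPM in moKCs, again below all CLEC4F- mac samples. Its log2 fold change was -0.46 ± 0.09 (SE, adjusted p = 5.16e-04 in edgeR). Tlr3 had 43.5, 35.9, 36.9, 40.5 and 33.9 CPM in moKCs, above all CLEC4F- mac samples, with a log2 fold change of 0.51 ± 0.12 (SE, adjusted p = 0.00257 in edgeR). Without CLEC4F- mac replicate 4 these were -0.68 for Tlr1, -0.43 for Tlr13 and 0.54 for Tlr3, all called.

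Tlr2 was lowest in moKCs of the 6 groups by mean, with 193, 148, 138, 177 and 189 CPM against 176 to 277 CPM in CLEC4F- macs (median 207), and these ranges overlapped. The log2 fold change was -0.34 ± 0.11 (SE, adjusted p = 0.0251 in edgeR). Its adjusted p was 0.0787 without moKC replicate 2, 0.0977 without moKC replicate 3 and 0.0933 without CLEC4F- mac replicate 1, and it was 0.0682 without the filter and 0.0888 in the compared groups alone. Altogether 1 member was higher and 3 were lower in moKCs than in CLEC4F- macs, where 9.34% of all genes were higher and 7.09% lower. None of these 4 passed the limit of 1 on the log2 scale, which 5.05% of all genes did. The medians were -0.20 over the members and 0.01 over all genes. Without CLEC4F- mac replicate 4, 6 members were called: Tlr4 (log2 fold change 0.45, adjusted p = 0.00957) and Tlr7 (0.29, adjusted p = 0.0207), both higher in moKCs, joined the 4 above, and Tlr2 had -0.40 (adjusted p = 0.00893).

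Between WD ResKCs and moKCs no member passed the test. Of 10 members 0 were called by edgeR, DESeq2 or limma-voom, where 2.00% of all genes were higher and 0.991% lower in ResKCs. Tlr2, Tlr6 and Tlr7 had an unadjusted p under 0.05 in edgeR. Of all 13421 genes, 1137 were higher and 998 lower in ResKCs at this limit. Tlr7, which senses single-stranded RNA, had 165, 169, 173, 180 and 182 CPM in moKCs and 129 to 164 CPM in WD ResKCs (median 152), which did not overlap, with a log2 fold change of -0.21 and an adjusted p of 0.234. The log2 fold change of Tlr2 was 0.28 ± 0.11 (SE, adjusted p = 0.175 in edgeR), and 0.37 with an adjusted p of 0.0428 when the immediate-early score was a covariate. The member median was -0.17 and that of all genes -0.02. The 3 comparisons among populations share samples, and so do those of diet and time.

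The levels across all 6 groups follow from these values. For Tlr1, only CLEC4F- macs, the highest, did not overlap with the next group. For Tlr7, moKCs, the highest, did not overlap with WD ResKCs at 24 weeks, the next by mean, but 2 samples of CLEC4F- macs, the third by mean, lay within their range at 167 and 179 CPM. For the other 8 members each group overlapped with the next in the order of means. The share of all genes with such a gap was not computed, so these gaps only describe the members.

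Other genes of the pathway were counted by role, in lists taken by name and all tested. Among 6 genes of ligand transfer and accessory receptors, 1 rose and 2 fell in WD against SD ResKCs at 24 weeks, where 4.84% of all genes were higher and 3.87% lower. Cd14, the co-receptor that hands lipopolysaccharide to TLR4 and lipoproteins to TLR2, had 430 to 1046 CPM on the SD (median 810) and 250 to 576 CPM on the WD (median 313), with a log2 fold change of -1.20 ± 0.26 (SE, adjusted p = 0.00409 in edgeR). Ly96, which encodes MD-2, the lipid-binding partner of TLR4, fell by 0.38 on the log2 scale (adjusted p = 0.0113). Cd36, a scavenger receptor for lipids that also serves TLR2 with TLR6, had 156 to 402 CPM on the SD and 519 to 885 CPM on the WD, without overlap, and rose by 1.19 (adjusted p = 4.08e-05).

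Of the inhibitors, 1 of 10 fell, Nfkbia, an inhibitor of NF-kB that NF-kB itself induces, with a log2 fold change of -1.07 (adjusted p = 0.0262). With the immediate-early score as a covariate the log2 fold change was -0.41 for Cd14 (adjusted p = 0.124), -0.16 for Nfkbia (0.713), -0.31 for Ctss (0.0549) and 0.28 for Tirap (0.187). Of 9 genes for folding, trafficking and cleavage of endosomal TLRs, Ctss alone fell, by 0.32 (adjusted p = 0.00893). Of 6 adaptors Tirap alone rose, by 0.32 (adjusted p = 0.0367), and of 16 kinases and ubiquitin ligases Irak1 alone rose, by 0.36 (adjusted p = 0.00622). The 8 transcription factors had 0 calls in edgeR and limma-voom, 1 in DESeq2 and 1 at an unadjusted p under 0.05 in edgeR, and Tlr11 and Tlr12, the other mouse receptors, had 0 by each of these counts. At that unadjusted limit 1750 of all 13421 genes were higher and 1581 lower. In all, 7 of the 57 genes were called in edgeR and in limma-voom and 12 in DESeq2, among the latter 4 accessory genes, 3 inhibitors and 2 kinases or ligases. Of all 13421 genes, edgeR called 4.84% higher and 3.87% lower, and DESeq2 called 1504 in either direction. The median log2 fold changes of the 7 lists lay between -0.15 and 0.10, beside 0.00 over all genes. The call of Tirap was lost on leaving out any of 9 samples (adjusted p up to 0.0991 in edgeR) and that of Nfkbia on leaving out any of 4 (up to 0.062).

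Against CLEC4F- macs, WD ResKCs had 5 of the 9 folding, trafficking and cleavage genes higher and 1 lower, where 17.0% of all genes were higher and 16.1% lower. The highest were the endosomal proteases Ctsl (log2 fold change 0.86), Lgmn (0.69) and Ctsb (0.48). Among accessory genes, Lbp, the lipopolysaccharide-binding protein, had 39.3 to 50.7 CPM in ResKCs and 8.60 to 21.5 CPM in CLEC4F- macs, a log2 fold change of 1.69 ± 0.20 (SE, adjusted p = 3.41e-08 in edgeR). Ly96 was 0.41 higher on the log2 scale, and Ly86, the partner of the TLR-like receptor CD180, was 0.21 lower with an adjusted p of 0.0496, which was 0.0523 in limma-voom.

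Adaptors had 3 of 6 higher and 0 lower, namely Sarm1, Tirap (0.49) and Pik3ap1 (0.38). Sarm1, a negative regulator of TRIF, rested on 5 to 63 counts a sample in ResKCs and 0 to 9 in CLEC4F- macs. Transcription factors split 2 higher and 2 lower. Irf7, which drives interferon genes downstream of TLR7 and TLR9, had 975 to 1123 CPM in ResKCs and 397 to 723 CPM in CLEC4F- macs (log2 fold change 1.01, adjusted p = 7.14e-08). Of the NF-kB subunits, Rela was higher (0.27) while Rel (-0.93) and Nfkb1 (-0.34) were lower. Of the kinases and ubiquitin ligases 2 were higher, Ripk1 (0.27) and Irak4 (0.16). The 2 lower were Irak2, which had the widest difference (-0.56), and Ikbkb. With any 1 sample left out Ikbkb kept its call, at -0.37 to -0.29. Of the inhibitors 2 were lower, Sigirr (-1.64, 5 to 28 against 22 to 88 counts a sample) and Tnip1 (-0.40). In all, 22 of the 57 genes were called, where 17.0% of all genes were higher and 16.1% lower, so the share was near that of all genes, and the list medians were -0.19 to 0.36, beside -0.02 over all genes. Without CLEC4F- mac replicate 4, 21 of the 22 kept their call and Ly86 lost it (adjusted p = 0.106). The call of Ly86 was lost on leaving out any of 9 samples (adjusted p up to 0.161 in edgeR) and that of Tnip1 without WD ResKC replicate 3 or CLEC4F- mac replicate 5 (up to 0.0671). The call of Irak4 was lost on leaving out any of 8 samples (up to 0.129) and that of Ripk1 without CLEC4F- mac replicate 1 or 3 (up to 0.0641).

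**Figure D5:**
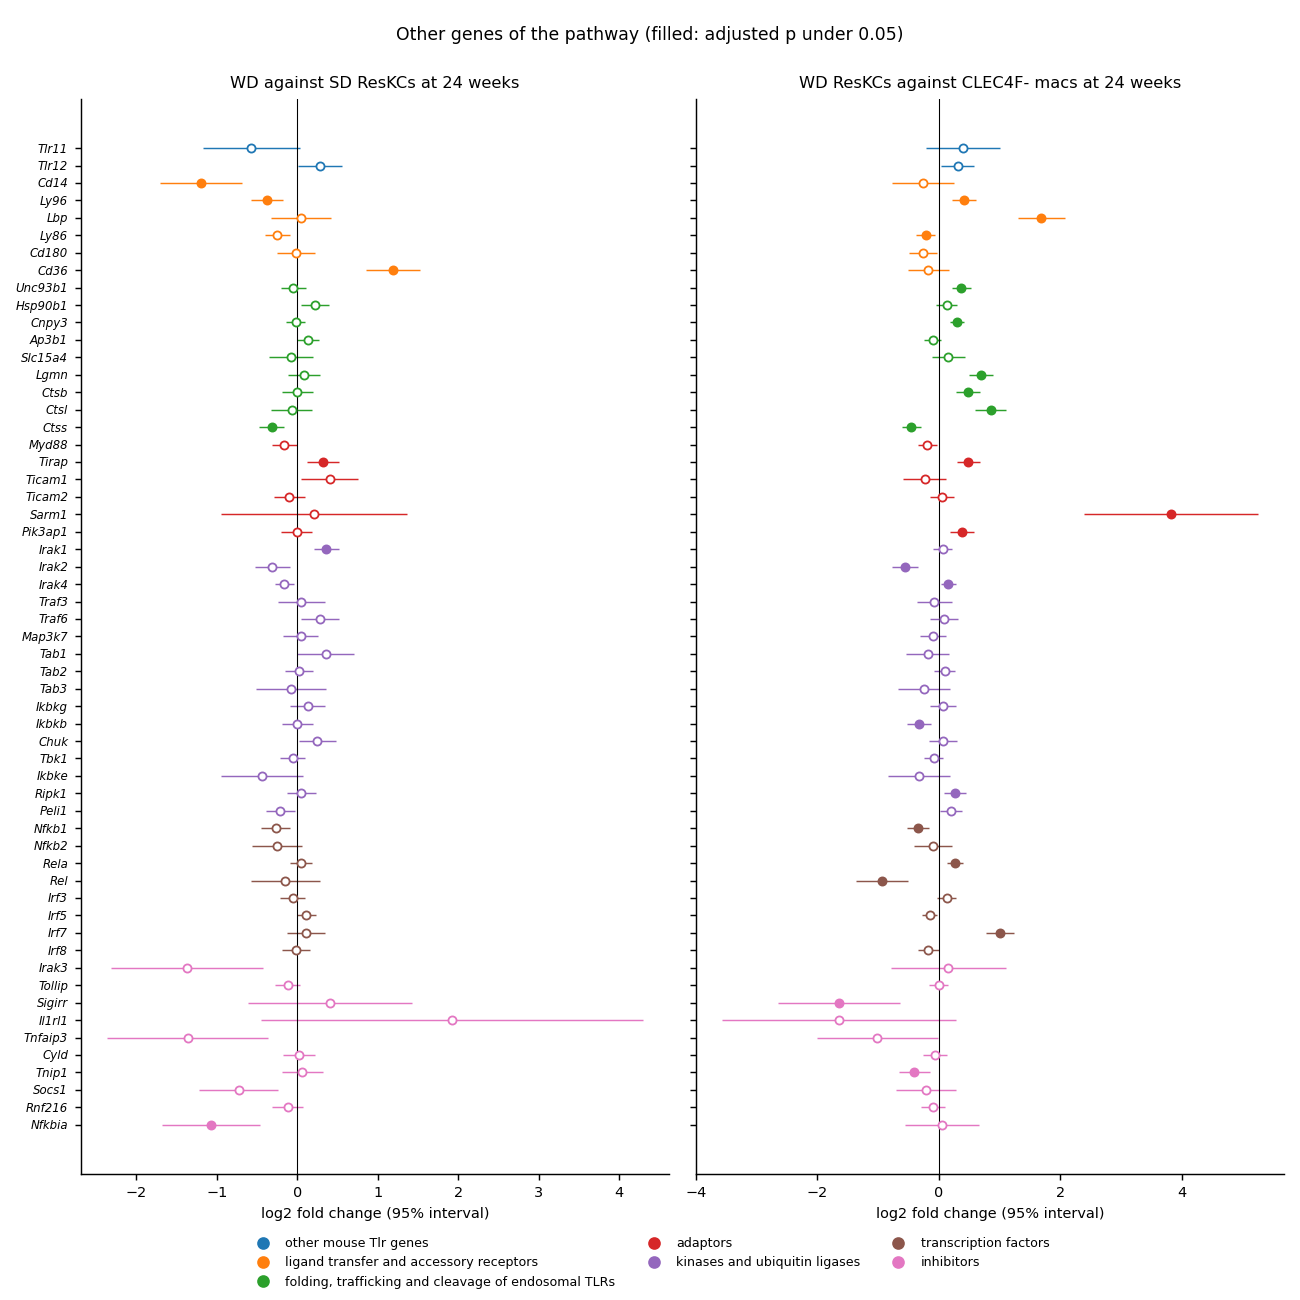
Fitted log2 fold changes with 95% intervals of the other pathway genes, coloured by role and filled where the adjusted p was under 0.05 in edgeR, for the diet at 24 weeks (left) and for WD ResKCs against CLEC4F- macs (right), on separate axes. Cd14 lies at -1.20 and Cd36 at 1.19 on the left, and Lbp at 1.69 on the right.

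In moKCs against CLEC4F- macs, accessory genes had 2 higher, Lbp (1.15) and Ly96 (0.35), and the folding, trafficking and cleavage list had Ctsl (0.79) and Lgmn (0.52) higher and Ctss lower (-0.25). Tlr12, which with TLR11 senses a profilin of parasites, was the 1 called of the other mouse receptors (0.69, adjusted p = 0.00112), with 170 to 274 CPM in moKCs and 93.3 to 235 CPM in CLEC4F- macs. Irf7 was higher (0.82), Rel lower (-0.72), Tirap higher (0.33), and Irak2 (-0.33) and Irf5 (-0.21) lower. These are 11 of the 57 genes, where 9.34% of all genes were higher and 7.09% lower, a share near that of all genes, with list medians of -0.21 to 0.56, beside 0.01 over all genes. All 11 kept their call without CLEC4F- mac replicate 4. Leaving out 1 sample ended the call of Irak2 for 8 samples (adjusted p up to 0.127 in edgeR), of Irf5 for 6 (up to 0.0938), of Ctss for 5 (up to 0.119), of Rel for 4 (up to 0.163), and of Ly96 (up to 0.0533) and Tirap (up to 0.0895) for 2 each, CLEC4F- mac replicate 1 among them. Over all 57 genes of these lists, WD ResKCs against moKCs had 0 calls in edgeR and 1 each in DESeq2 and limma-voom, with 11 at an unadjusted p under 0.05 in edgeR. The diet at 12 weeks had 0 calls by each tool and 9 at an unadjusted p under 0.05 in edgeR. SD ResKCs at 24 against 12 weeks had 0 and 6, and the difference of diet effects had 0 and 11, with 2 calls in DESeq2 and 0 in limma-voom. At that unadjusted limit, 1137 of all 13421 genes were higher and 998 lower in WD ResKCs against moKCs. For the diet at 12 weeks 706 were higher and fewer than 706 lower. For SD ResKCs over time 602 were higher and 606 lower, and for the difference of diet effects 819 and 1067. In WD ResKCs at 24 against 12 weeks 4 of the 57 were called, where 1.53% of all genes were higher and 1.73% lower: the accessory genes Cd180 (-0.57) and Ly86 (-0.35) fell, and Ticam1, which encodes TRIF, rose (0.80), as did Irak1 (0.33). The call of Irak1 was lost on leaving out any of 6 samples (adjusted p up to 0.116 in edgeR), that of Ly86 without WD ResKC replicate 5 at 12 weeks or 1 at 24 weeks (up to 0.0946) and that of Ticam1 without replicate 3 at 12 weeks or 4 at 24 weeks (up to 0.0678).

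The genes whose sample-to-sample deviations from group means were most like those of a member were listed by Pearson's r over the 35 samples, as a description. For Tlr2 they were Tmem123 (r = 0.73) and Nfkb2 (r = 0.72), the latter a subunit of NF-kB. Tlr4 had the highest value of all members with Dse (r = 0.83), followed by Nipa2 (r = 0.81). For Tlr1 they were Asb2 (r = 0.74) and Glrx (r = 0.73). The first gene was Clcn7 for Tlr13 (r = 0.73), Rmnd5a for Tlr7 (r = 0.73) and Xdh for Tlr3 (r = 0.67). It was Mtx1 for Tlr9 (r = 0.72), Agmo for Tlr8 (r = 0.68), Zfp280d for Tlr6 (r = 0.65) and BC049715 for Tlr5 (r = 0.57). The samples behind each r share libraries and depth.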

How the data were processed

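Bulk RNA-seq of 35 sorted samples was used. Per the labels and the study's methods, the authors made TruSeq libraries, sequenced single reads on a NextSeq500, checked them with FastQC 0.11.9, mapped them to mm10 with HISAT2 2.2.0 and counted them per gene with featureCounts 2.0.0. The files deposited give raw whole-number counts for each gene symbol. The annotation, strand setting and treatment of multi-mapping reads are not given in the sources used here. The study used limma on filtered counts.

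A filter of more than 1 CPM in 5 or more samples left 13421 genes. In R 4.3.3, edgeR 4.0.16 scaled libraries by TMM and ran its quasi-likelihood test on a single model with a mean for each of 6 groups. A gene was called at an adjusted p under 0.05 (Benjamini-Hochberg over all genes tested). The 95% intervals are 1.96 SE on either side, and log2 CPM used a prior count of 2. Samples were grouped by title. The members and lists were chosen with earlier results of these data known. All members are named, and of each pathway list at most the 3 called genes with the widest fold change per comparison, with the 1 or 2 genes most like each member. Rela and Irak4 were named in addition, after their values were seen. Alternatives were DESeq2 1.42.0, limma-voom (limma 3.58.1), library size alone, no filter, robust dispersion, an added limit of 1 on the log2 fold change, the compared groups alone with and without replicate number as a block, 3 covariates (hepatocyte genes, immediate-early genes, naming scheme) and each sample left out. On simulated data with 200 genes of 13421 changed 4-fold, edgeR recovered 187 in the 24-week diet comparison and 177 in WD ResKCs against CLEC4F- macs. The called members differed by 1.94-fold (Tlr1) or less, a size that the simulation did not cover.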

Additional observations from a re-analysis of the deposited data

Results flagged for a closer look

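Of 60 sets of a member in a group, 6 held a sample whose gap to the nearest of the others was wide for its group on the log2 CPM scale (Dixon's 95% critical value), and chance gives about 1 in 20. Tlr3 in CLEC4F- mac replicate 1 was at 4.30 (19.5 CPM), below 4.67 to 4.90 in the other 5 samples, and without this sample the gap between WD ResKCs and CLEC4F- macs kept its direction and its call. Tlr5 in CLEC4F- mac replicate 6 was at -2.75 (0 counts). Tlr6 in WD ResKC replicate 3 at 12 weeks was at 5.06 (33.2 CPM), above 4.69 to 4.79 in the other 4. In SD ResKCs at 12 weeks, Tlr1 was at 5.70 in replicate 2 (51.8 CPM), Tlr7 at 6.74 in replicate 5 (106 CPM) and Tlr13 at 7.46 in replicate 3 (176 CPM).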

How the results depend on the processing

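The counts of members called moved by over 1.5 times in these cases. With the added limit of 1 on the log2 fold change, 0 members were called for the diet at 24 weeks, for WD ResKCs and for moKCs against CLEC4F- macs, and for WD ResKCs at 24 against 12 weeks. DESeq2 called 1 member in the difference of diet effects. For WD ResKCs at 24 against 12 weeks the count was 0 without the filter (Tlr2 adjusted p = 0.0555 in edgeR), with the naming scheme as a covariate (0.0673) and in the compared groups alone (0.0669). With the immediate-early covariate it was 0 for the diet at 24 weeks and 1 for WD ResKCs against moKCs. With the replicate number as a block it was 2 for moKCs against CLEC4F- macs, where Tlr2 (adjusted p = 0.121) and Tlr3 (0.0779) did not pass. The causes were not tested, apart from the fold limit, which no called member reached.

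Leaving out 1 sample gave 0 to 1 members for WD ResKCs at 24 against 12 weeks and 3 to 6 for moKCs against CLEC4F- macs, and left the counts of the other comparisons unchanged. Of the log2 fold changes of members under alternatives, 14 lost and 5 gained a call, and 0 called ones changed sign; Tlr8 gained one in WD ResKCs against CLEC4F- macs with library size alone (-0.27, adjusted p = 0.0216 in edgeR). Of the values of called pathway genes, 833 kept and 120 lost the call and 0 changed sign; among named genes, Tirap, Nfkbia, Ctss, Cd14, Irak1, Irak2, Ly86, Ly96, Irf5, Ripk1, Irak4, Rel, Rela, Lgmn, Irf7, Ticam1 and Tnip1 lost a call under at least 1 alternative other than a sample left out.

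Library size alone moved the median of all genes in WD ResKCs against CLEC4F- macs to -0.144 on the log2 scale from -0.023. It moved the share of higher genes among those called from 51.4% to 33.3% there, from 55.6% to 77.0% for the diet at 24 weeks, from 56.9% to 38.8% for moKCs against CLEC4F- macs, from 47.0% to 65.0% for WD ResKCs over time and from 23.7% to 63.6% in the difference of diet effects (43.5% with DESeq2). Over all genes, the calls ranged over alternatives other than the fold limit and samples left out from 469 (immediate-early covariate) to 1504 against 1169 for the diet at 24 weeks, 0 to 44 against 5 at 12 weeks, 120 (block) to 576 against 401 for WD ResKCs against moKCs, 667 (block) to 2416 against 2204 for moKCs against CLEC4F- macs, 119 (block) to 632 against 438 for WD ResKCs over time, 0 to 16 against 0 for SD ResKCs over time and 0 (block) to 184 against 38 in the difference of diet effects. The upper values are those of DESeq2 except for moKCs against CLEC4F- macs (library size alone). With 1 sample left out they were 0 to 84 for the diet at 12 weeks (84 without SD ResKC replicate 7), 232 (without moKC replicate 4) to 522 for WD ResKCs against moKCs, 126 (without the 12-week replicate 5) to 489 for WD ResKCs over time, 0 to 9 for SD ResKCs over time and 8 (without the SD 24-week replicate 1) to 98 (without the SD 24-week replicate 3) in the difference of diet effects.

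Whether replicate numbers pair samples was not settled. Same-numbered samples of WD ResKCs and CLEC4F- macs had correlations of deviations of 0.024 to 0.263, with 5 of 6 best with their own number, the most of any comparison. No comparison had every pair over 0.1. The main fit treats samples as unpaired. With the replicate number as a block, 4014 of all genes were called between these populations, against 4433. Depth limits Tlr5 and Tlr9.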
